A study of Homo sapiens with 26 samples.

Results

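The ER membrane complex (EMC) was examined through 8 of its subunits, EMC1, EMC2, EMC3, EMC4, EMC6, EMC7, EMC8 and EMC10, which were chosen by gene name among 12325 transcripts in the codon maps. EMC7 had been picked by the study for its reads at 60 min in its first experiment, so its values there are given as a description and are not tested. Apart from exceptions that do not include EMC7, the study also found its sensitive genes at the shorter treatment time. It reports the same sensitive sequences in its second experiment. Tests of EMC7 in those libraries therefore repeat a published call and are not independent of it. The other 7 members, called partners here, were taken because they belong to the same complex. The cells were Huh7, a line derived from a human hepatocellular carcinoma, and the compound was PF-06446846, a small molecule studied for stalling ribosomes on selected nascent chains. In study 1, ribosome profiling (ribo-seq, the sequencing of mRNA fragments covered by ribosomes) was run on 3 replicates each of cells given 1.5 µM compound, 0.3 µM compound or DMSO vehicle for 10 or 60 min. In study 2, ribo-seq and mRNA-seq were run on 2 replicates each, numbered 4 and 5, of cells given 1.5 µM compound or vehicle for 60 min. All 26 libraries came from this 1 unmodified line, and no knockout or clone was compared. A read was placed at the codon in the ribosomal P-site, and a level in RPM is the number of reads per 1000000 reads on all codons of that library. The study's methods call the replicates biological, and the labels say no more of how the cultures were kept apart. The p-values measure the spread between these libraries, and counting error is the only error covered where a single library is given.

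The EMC is a multisubunit machine of the endoplasmic reticulum that inserts tail-anchored proteins and some transmembrane segments of multipass proteins into the membrane. EMC3 and EMC6 form its membrane-embedded insertase core together with MMGT1 (also called EMC5). EMC2 and the related, interchangeable EMC8 and EMC9 make up its cytosolic part, and EMC4 spans the membrane beside the core. EMC1, EMC7 and EMC10 carry large domains in the ER lumen and are themselves made with an N-terminal signal sequence, the hydrophobic stretch that brings a ribosome to the ER.

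Since the reads on EMC7 changed over a few codons near its start, the first 40 codons of its coding sequence are shown, with codons 15 to 19 in capitals, and those of the other subunits with lumenal domains stand beside them for comparison, with the codons of the same numbers in capitals.
EMC7: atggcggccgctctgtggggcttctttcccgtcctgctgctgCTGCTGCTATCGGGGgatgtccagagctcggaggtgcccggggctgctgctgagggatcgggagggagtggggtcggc
EMC10: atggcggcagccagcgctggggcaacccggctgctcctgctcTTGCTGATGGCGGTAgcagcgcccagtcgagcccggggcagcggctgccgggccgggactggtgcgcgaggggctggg
EMC1: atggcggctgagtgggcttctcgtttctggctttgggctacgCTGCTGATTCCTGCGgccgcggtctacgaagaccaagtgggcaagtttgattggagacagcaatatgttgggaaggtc
On GRCh38 (GENCODE annotation), EMC7 lies on the minus strand of chromosome 15, from 34084017 to 34101862, in 5 exons. Its capitals correspond to chr15:34101783-34101797 in the coding part of exon 1, and the transcript has 243 codons with the stop. The first 19 codons of EMC7 held 7 leucine codons, a number that 2.5% of 10224 transcripts with a matching sequence reached. EMC10 held 6 (5.02% of transcripts held as many) and EMC3 held 5 (9.38%), while EMC1 held 3 and EMC6 held 0. The median over these transcripts was 2. None of the 28-base stretches of EMC7 or of any partner occurred in another of the 11270 transcripts searched. Matches with mismatches were not searched for.

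In treated cells, reads accumulated on codons 15 to 19 of EMC7. The window was set as the codon with the greatest rise in mean RPM in the 60-min libraries of study 1, codon 17, and 2 codons on each side, and it was tested only in libraries that had not set it. At 10 min the window held 13.1, 12.2 and 15.6 RPM in the 3 libraries given 1.5 µM, from 90 to 148 reads each. The vehicle libraries held 2.44, 3.36 and 3.65 RPM, from 31 to 42 reads each. All 3 treated libraries lay above all 3 vehicle libraries. The share of all windows that separated in this way was not counted, here or in the later comparisons of windows. The rise was 2.18 on the log2 scale, or 4.53-fold (SE 0.35, adjusted p = 1.15e-05, quasi-likelihood test of edgeR, Benjamini-Hochberg adjusted over all windows). As a background, 22% of 4506 windows tested were called higher in this comparison at an adjusted p under 0.1, the threshold used throughout. That background was unsteady, with 530 to 1308 windows called in either direction when 1 library was left out.

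Study 2 gave the same direction. Codons 15 to 19 of EMC7 held 17.6 and 14.9 RPM in the treated ribo-seq libraries against 2.84 and 2.36 RPM with vehicle. The groups did not overlap, and the rise was 2.61 on the log2 scale, or 6.12-fold (SE 0.25, adjusted p = 2.77e-06, edgeR), where 1.74% of 4198 windows were called higher. In the mRNA-seq libraries of the same cells the window held 2.33 and 2.04 RPM against 1.17 and 0.635 RPM. These values rest on only 14 to 43 reads, also lay higher in both treated libraries, and were not tested.

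With 0.3 µM at 10 min, the window of EMC7 held 10.5, 7.44 and 10.4 RPM, which is above the 3 vehicle libraries already given, since both doses share them. How many of all windows lay above vehicle in this way was not counted. The difference of 1.62 on the log2 scale (SE 0.43) had an unadjusted p of 0.000859 and did not pass after adjustment (adjusted p = 0.620, edgeR). This fit had no replicate block, although same-numbered libraries of these groups deviated together. With edgeR no window among 4585 was called at this dose (0.0%, with 118 at an unadjusted p under 0.05), and DESeq2 called 5, among them EMC7 (adjusted p = 0.0850).

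At 60 min in study 1, from which the window came, its level in EMC7 was 12.1, 13.3 and 16.4 RPM with 1.5 µM. It was 6.92, 6.11 and 9.53 RPM with 0.3 µM and 6.24, 2.51 and 4.36 RPM with vehicle. The libraries given 1.5 µM stood above all others, whereas the lowest library given 0.3 µM lay below the highest vehicle library.

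The codon of greatest rise was found anew in each comparison. It was codon 17 of EMC7 in all 3 comparisons of 1.5 µM with vehicle by ribo-seq, with rises of 3.70 RPM at 10 min, 3.99 RPM at 60 min and 5.15 RPM in study 2. With 0.3 µM it was codon 18 at both times, with rises of 2.61 and 1.87 RPM. In mRNA-seq it was codon 210, with a rise of 0.58 RPM. The study also names codon 17 as the main stall of EMC7 after 60 min. No partner had the same codon in all 3 comparisons of 1.5 µM with vehicle by ribo-seq. The share of all transcripts with the same codon in all 3 was not counted. Of these comparisons, that at 60 min is the one by which EMC7 had been picked. Codon 35 of EMC3 was found at 10 min (1.87 RPM) and at 60 min (1.71 RPM) with 1.5 µM but codon 189 in study 2. Some partners repeated a codon between doses. At 60 min, where both doses share the vehicle libraries, it was codon 161 of EMC4 and codon 59 of EMC6 with either dose. Codon 59 of EMC6 was also found in mRNA-seq. Codon 289 of EMC2 was found with 1.5 µM at 60 min and 0.3 µM at 10 min, and codon 140 of EMC8 with 1.5 µM at 10 min and 0.3 µM at 60 min.

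**Figure D1:**
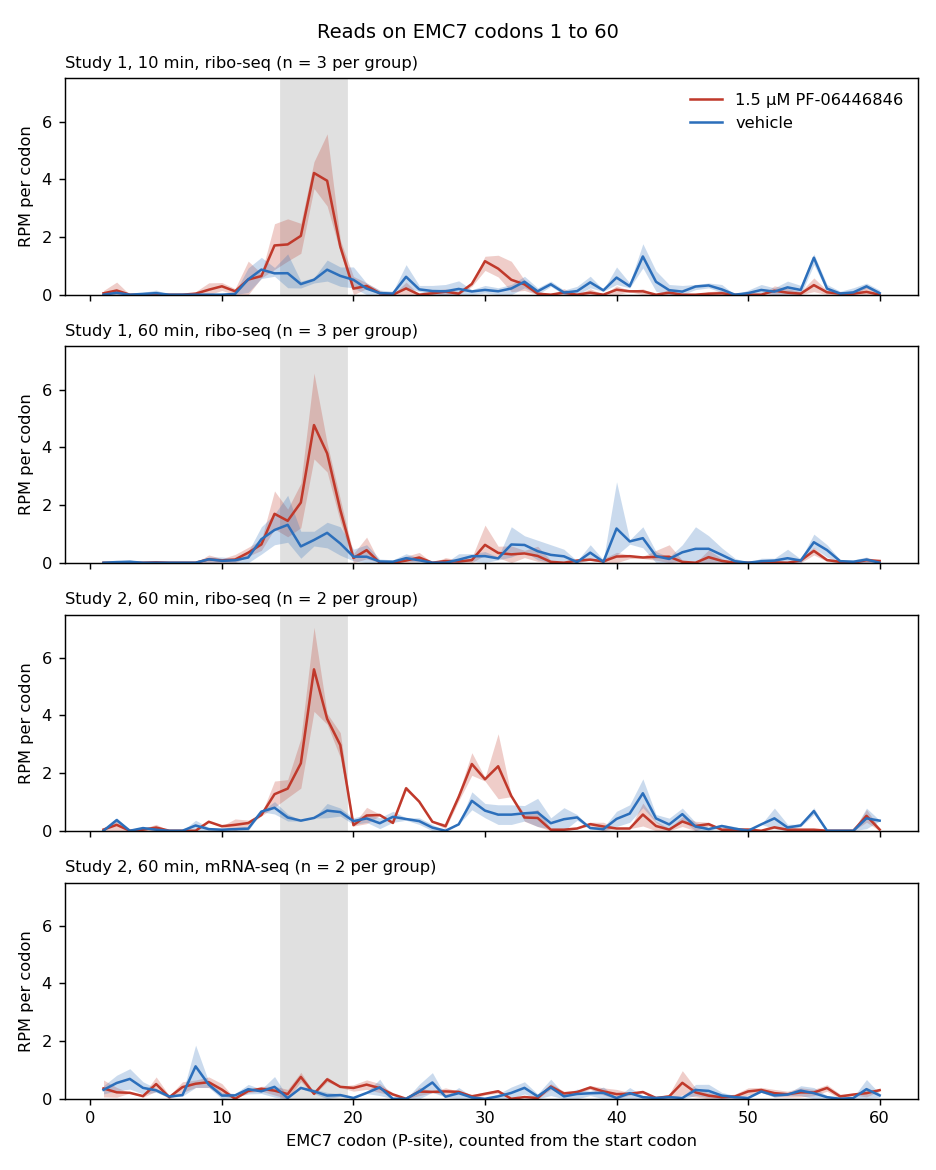
Reads per codon (RPM, vertical axis) on codons 1 to 60 of EMC7 (horizontal axis) with 1.5 µM compound (red) and vehicle (blue); lines are group means, shading runs from the lowest to the highest library, and grey marks codons 15 to 19. The red line peaks at codon 17 in the 3 ribo-seq panels. In the mRNA-seq panel its highest value is 0.758 RPM at codon 16, also within the grey, and the blue line reaches 1.13 RPM at codon 8.

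A second, smaller rise stood at codons 28 to 32 of EMC7, a stretch chosen after its values were seen and therefore not tested. In study 2 it held 10.3 and 7.1 RPM with compound against 2.33 and 3.83 RPM with vehicle. At 10 min it held 2.62, 2.46 and 3.89 RPM against 0.638, 1.2 and 0.589 RPM. Both sets were apart, but at 60 min in study 1 the values of 2.38, 1.14 and 0.622 RPM overlapped the vehicle values of 2.03, 1.1 and 0.892 RPM. Further along, the order turned around on codons 33 to 50. This stretch starts where the one chosen after its values were seen ends, so it was not tested either. Codons 33 to 50 held 0.582, 1.54 and 1.16 RPM at 10 min against 4.7, 5.69 and 6.01 RPM with vehicle, and 3.2 and 3.18 RPM against 5.31 and 7.65 RPM in study 2.

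The share of EMC7 reads that lay in its first 50 codons was also taken. At 10 min they took 46.1%, 40.4% and 37.4% of its reads with 1.5 µM, 30.5%, 21.3% and 27.3% with 0.3 µM, and 12.5%, 15.8% and 15.6% with vehicle. At 10 min the 3 doses did not overlap. In the 60-min libraries of study 1, by which EMC7 had been picked, the shares were 30.6%, 39.7% and 37.3% with 1.5 µM, 17.6%, 19.2% and 23.3% with 0.3 µM, and 21.3%, 13.5% and 14.1% with vehicle, so 0.3 µM and vehicle overlapped there. In study 2 the shares were 54.4% and 50.1% with compound and 18.4% and 22.6% with vehicle. The mRNA-seq shares were 21.4% and 16.7% with compound and 13.9% and 21.2% with vehicle, and these overlapped.

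Reads of all transcripts moved the same way at 10 min. After codon 50 lay 85.5%, 85.2% and 85.7% of all reads with 1.5 µM and 88.8%, 87.5% and 86.3% with vehicle. Among transcripts with at least 20 coding reads in each library, 22.5% had a higher first-50 share in every treated library than in any vehicle library at 10 min, and 3.21% had a lower one. Of the 7 partners, 3 (EMC1, EMC3 and EMC4) were among the higher ones and 0 among the lower ones. The first-50 share of EMC3 was 21.9%, 19.9% and 19.48% with 1.5 µM and 13.8%, 12.1% and 16% with vehicle. That of EMC4 was 22.8%, 19.4% and 17.4% against 11.6%, 14.54% and 16.8%. In study 2, EMC10 was higher and 3 partners (EMC3, EMC4 and EMC8) were lower, where 18.8% and 13.5% of transcripts were. The part of the general movement in the EMC7 shares was not tested.

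Downstream of codon 50, EMC7 had fewer reads in treated cells, and no partner was called lower. At 10 min EMC7 held 24.3, 31.1 and 42.1 RPM after codon 50 with 1.5 µM and 76.5, 80.7 and 79.7 RPM with vehicle. Every treated library lay below every vehicle library, as was so for 17.2% of all transcripts in this comparison. EMC7 stood at 43.8% of its vehicle level, a log2 fold change of -1.19 (SE 0.16, adjusted p = 0.00221, edgeR), where 1.21% of 10745 transcripts were called lower. That background was unsteady, with 24 (without 1.5 µM replicate 2) to 824 (without vehicle replicate 3) transcripts called lower when 1 library was left out, against 130 with all, while EMC7 was called lower in each of these 6 fits. As levels are relative to all reads of a library, fewer ribosomes on each EMC7 mRNA and fewer EMC7 mRNAs cannot be told apart in these libraries, and study 1 has no mRNA-seq.

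In study 2, EMC7 held 32.9 and 32.2 RPM after codon 50 with compound and 64.1 and 66.3 RPM with vehicle. The groups did not overlap, as for the 15.1% of transcripts that had both treated libraries below both vehicle libraries. The log2 fold change was -1.0 (SE 0.09, adjusted p = 0.000393, edgeR), with 0.255% of 10993 transcripts called lower. That background was not steady, as more transcripts were called with the replicate number as a block. Counted over its whole coding sequence, the peak included, EMC7 changed by -0.27 (SE 0.09) in study 2 and did not pass (adjusted p = 1.00), and at 10 min by -0.70 (adjusted p = 0.0570, edgeR).

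The mRNA of EMC7 gave no such difference. Its mRNA-seq level after codon 50 was 53.4 and 55.2 RPM with compound and 54.5 and 48.2 RPM with vehicle. The sets overlapped, and the log2 fold change was 0.07 (SE 0.12, adjusted p = 0.998, edgeR), with an interval of 2 SE on each side from -0.17 to 0.31. With edgeR no transcript was called in mRNA-seq (0.0%, with 215 at an unadjusted p under 0.05), and DESeq2 called 1. Without vehicle replicate 4, edgeR called 570, and without any other library at most 2. Translational efficiency, the ribo-seq change over and above the mRNA-seq change, was tested in 1 model of the 8 libraries of study 2, as the interaction between treatment and assay. For EMC7 after codon 50 it changed by -1.06 (SE 0.14, adjusted p = 0.0130, edgeR), where 0.13% of 11524 transcripts were called, all lower. Counted over the whole coding sequence, the peak included, the fall was smaller and did not pass. Ribo-seq and mRNA-seq libraries with 1 number and treatment came from the same sample by the study's description, and with a term for that sample the change after codon 50 was -1.06 (SE 0.15, adjusted p = 0.00304, edgeR). This call was often lost with 1 library left out. The estimate stayed between -1.15 and -0.98 when any 1 was, but the adjusted p ran from 0.00344 to 0.164, and 3 of 8 such fits made the call. It was lost without ribo-seq 1.5 µM replicate 4 (adjusted p = 0.164) or 5 (0.120), ribo-seq vehicle replicate 4 (0.103) or 5 (0.164), or mRNA-seq 1.5 µM replicate 5 (0.117).

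The dose of 0.3 µM gave intermediate levels of EMC7 after codon 50. They were 46.2, 58.1 and 54.5 RPM at 10 min, between the vehicle and the 1.5 µM libraries without overlap with either. Lying below vehicle in all libraries was found for 3.7% of transcripts, and lying lower with 1.5 than with 0.3 µM for 12.3%. The difference from vehicle was -0.54 (SE 0.13, unadjusted p = 0.00182, adjusted p = 1.00, edgeR). With edgeR no transcript was called at 0.3 µM at either time (0.0%), with 110 at 10 min and 99 at 60 min at an unadjusted p under 0.05, and DESeq2 called 4 and 0. Same-numbered libraries deviated together in both comparisons, and with the replicate number as a block edgeR called 0 at 10 min and 5 at 60 min, without EMC7. Between 1.5 and 0.3 µM at 10 min the log2 fold change was -0.65 (SE 0.18, adjusted p = 0.293, edgeR), where 0.0466% of 10738 transcripts were called. Same-numbered libraries of these 2 doses deviated together, and with the replicate number as a block the difference was -0.68 and passed (adjusted p = 0.0199), as did DESeq2 (adjusted p = 0.0725).

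At 60 min in study 1 the levels of EMC7 after codon 50, given as a description, were 44.4, 30.2 and 41.5 RPM with 1.5 µM. They were 64.4, 61.4 and 60.8 RPM with 0.3 µM and 86.4, 69.1 and 76.5 RPM with vehicle. Here too the doses did not overlap; against vehicle, 3.41% of transcripts had all libraries given 1.5 µM lower and 2.32% all libraries given 0.3 µM lower. The fitted log2 fold changes against vehicle were -0.99 at 1.5 µM and -0.31 at 0.3 µM.

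**Figure D2:**
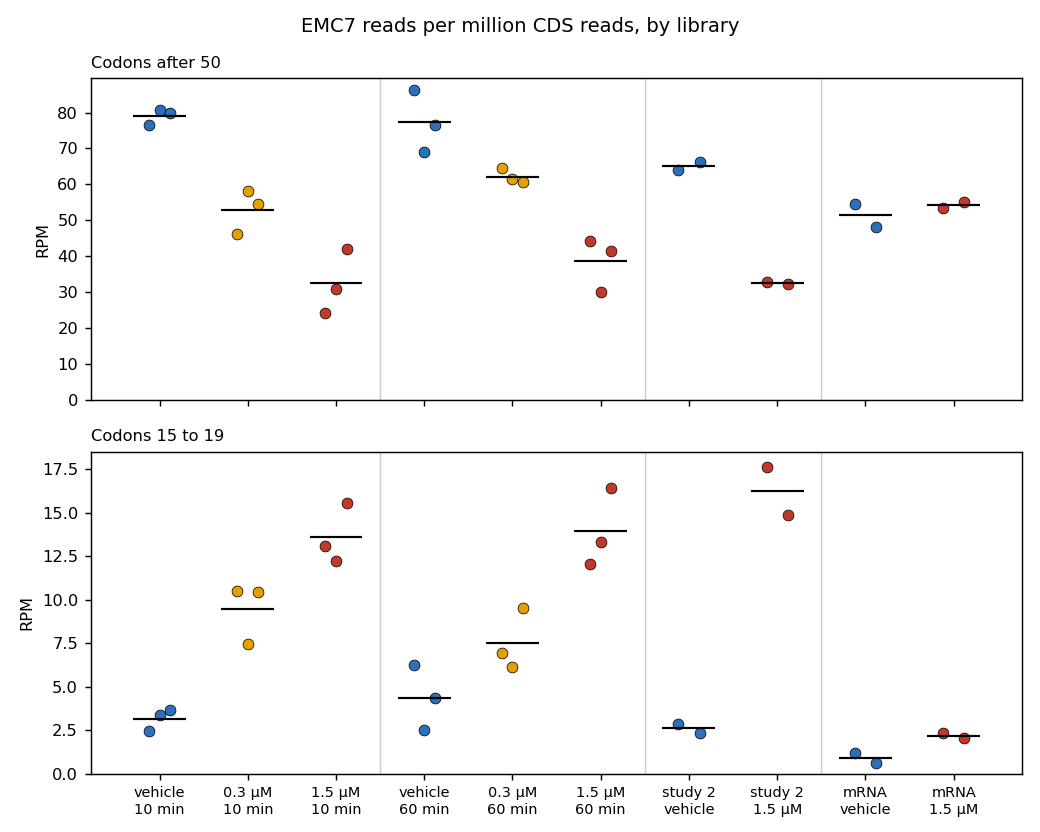
Reads on EMC7 in RPM (vertical axes) after codon 50 (upper panel) and on codons 15 to 19 (lower panel) in each of the 26 libraries (points), by group; black bars are group means, with 3 libraries per group in study 1 and 2 in study 2. In every ribo-seq set the libraries given 1.5 µM are lowest in the upper panel and highest in the lower one.

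The partners were tested with edgeR in the same 8 comparisons of reads after codon 50. No partner was called in any of them. At an unadjusted p under 0.05 there were 2 of 7 at 10 min with 1.5 µM, 1 between the doses, 1 for translational efficiency and 0 in the other comparisons. DESeq2 called 1, EMC6 at 10 min with 1.5 µM, where it called 608 transcripts in all. These edgeR fits had no replicate block. With the replicate number as a block 2 of 7 were called at 10 min with 1.5 µM, where 1171 transcripts were called in all, against 195 without it. Without the block 0 of 7 were called there, with a median log2 fold change of 0.04 and a range from -0.23 (EMC2) to 0.70 (EMC6), beside 1.81% of all transcripts called (0.605% higher, 1.21% lower) and a median of 0.00 over all. EMC6 and EMC8 passed without adjustment. EMC6, a core subunit, held 23.7, 28 and 20.4 RPM with compound against 12.8, 13.9 and 21.1 RPM with vehicle, so the sets overlapped through vehicle replicate 3. Its estimate of 0.70 (SE 0.20, unadjusted p = 0.00342, adjusted p = 0.112, edgeR) passed with DESeq2 (adjusted p = 0.0374) and, at 0.96, without vehicle replicate 3 (adjusted p = 0.00876, edgeR). EMC8, a cytosolic subunit, held 60.2, 63.4 and 64.1 RPM against 52.4, 43.2 and 58.8 RPM, and the sets did not overlap. Its estimate was 0.37 (SE 0.13, unadjusted p = 0.0149, adjusted p = 0.181, edgeR) and it passed, at 0.49, without vehicle replicate 3 (adjusted p = 0.0338). Being higher in all treated libraries was found for 5.64% of transcripts. EMC2 was lower in all treated libraries, at 26.5, 28 and 22.3 RPM against 33.4, 32.6 and 29 RPM, and its change of -0.23 did not pass (adjusted p = 0.366).

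In study 2, 0 of 7 partners were called by ribo-seq (0.264% of transcripts were, 0.0091% higher and 0.255% lower), with a median of 0.08 and a range from -0.09 (EMC1) to 0.19 (EMC4). EMC3, the insertase subunit, held 108 and 105 RPM with compound and 101 and 98.8 RPM with vehicle. EMC4 held 67.4 and 58.7 RPM against 53.1 and 57.5 RPM. Both were higher in each treated library, as was EMC8, and EMC1 was lower. With 2 libraries against 2 such separation was common, at 15.2% of transcripts higher and 15.1% lower, and none of these differences passed (adjusted p = 0.999 for each of the 7, edgeR).

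By mRNA-seq 0 of 7 partners were called, from -0.28 (EMC10, a lumenal subunit) to 0.06 (EMC1). Translational efficiency called 0 of 7, from -0.15 (EMC1) to 0.26 (EMC3, SE 0.12, unadjusted p = 0.0478, adjusted p = 1.00, edgeR). At 60 min in study 1, 0 of 7 partners were called (0.177% of transcripts were, 19 in all, and 63 with the replicate number as a block, again with 0 of 7 partners), from -0.06 (EMC1) to 0.24 (EMC6). There 0 of 7 partners were higher in all treated libraries and 0 lower in all of them, beside 3.45% and 3.41% of transcripts. With 0.3 µM 0 of 7 were called at either time. EMC1 alone was lower in all libraries at 60 min with this dose and none was higher (2.32% and 2.78% of transcripts). Between the doses at 10 min 0 of 7 were called in the fit without a replicate block, although same-numbered libraries of these doses deviated together. EMC8, at 60.2, 63.4 and 64.1 RPM with 1.5 µM and 46.1, 53.0 and 50.2 RPM with 0.3 µM, was higher in all libraries (5.46% of transcripts were), by 0.38 on the log2 scale (unadjusted p = 0.00581, adjusted p = 0.313, edgeR).

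The subunits that were not among the chosen members were read as well. MMGT1 changed by -0.02 at 10 min and -0.04 in study 2 by ribo-seq, and EMC9 by 0.20 and -0.18, and neither passed in any comparison. The mRNA of MMGT1 was higher in both treated libraries, at 3.36 and 4.01 RPM against 2.23 and 1.59 RPM. The difference of 0.94 (SE 0.38) had an unadjusted p of 0.0299 and did not pass (adjusted p = 0.998, edgeR), and it rests on 35 to 62 reads a library. Its translational efficiency changed by -0.97 (SE 0.36), about as much as that of EMC7, with an unadjusted p of 0.02, and did not pass (adjusted p = 1.00, edgeR). Over the whole coding sequence that value was -0.19.

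**Figure D3:**
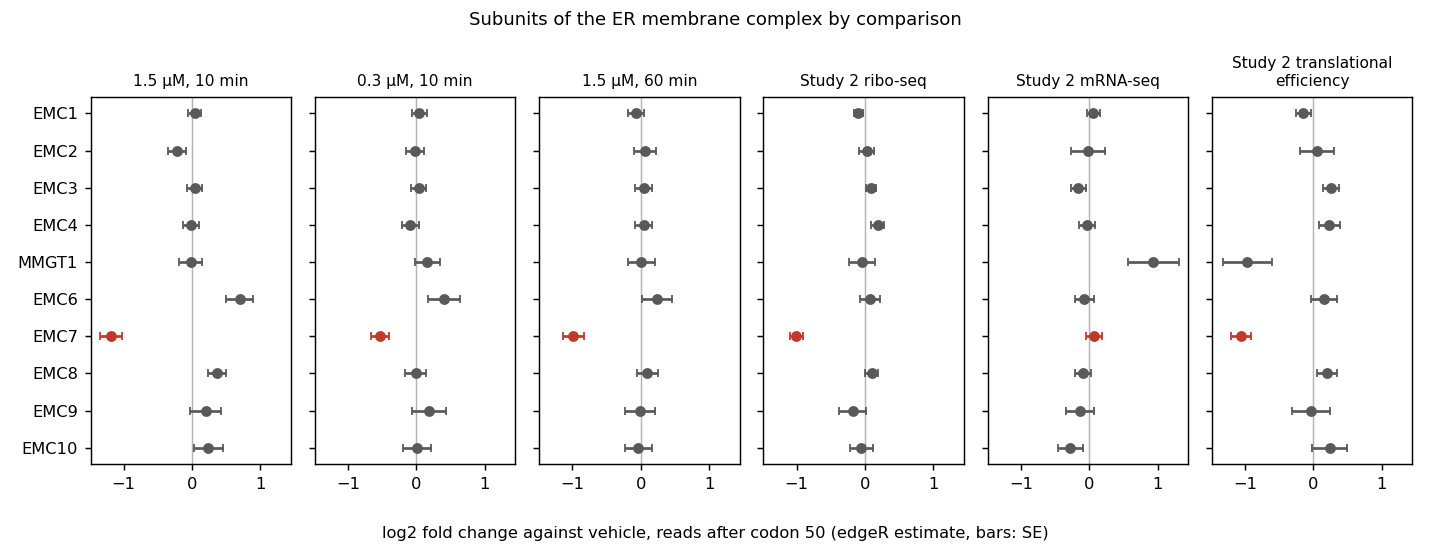
Log2 fold change against vehicle of the reads after codon 50 (horizontal axes, edgeR estimate, bars are SE) for the 10 subunits (rows) in 6 comparisons. EMC7, in red, lies between -1.19 and -0.54 in the ribo-seq panels, where the other subunits, in grey, lie between -0.23 and 0.70. In mRNA-seq EMC7 is at 0.07 and MMGT1 is at 0.94. In translational efficiency MMGT1 is at -0.97, near EMC7. The EMC7 point at 60 min in study 1 is a description.

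Because scaling between libraries cancels in a ratio within a library, EMC7 was also set against the summed reads of its 7 partners after codon 50. At 10 min this percentage was 5.40, 6.94 and 9.20 with 1.5 µM, 10.4, 12.7 and 12.4 with 0.3 µM, and 17.2, 18.7 and 16.8 with vehicle. In study 2 it was 7.33 and 7.54 with compound and 15 and 15.3 with vehicle. Treated libraries were lower than the vehicle libraries of their own experiment in each case. Over the 10 libraries given 1.5 µM or vehicle in these 2 experiments, the mean log2 difference was -1.18 (exact permutation test within experiments, two-sided, p = 0.0167, the smallest that 120 arrangements allow). Counted over whole coding sequences it was -0.56 with the same p. Within 10 min alone it was -1.32 (exact p = 0.10, the smallest possible with 3 against 3), and within study 2 alone -1.03 (exact p = 0.333, the smallest possible with 2 against 2). With 0.3 µM at 10 min it was -0.58 (exact p = 0.10). By mRNA-seq the percentage was 14.1 and 15 with compound and 13.8 and 12.9 with vehicle, a log2 difference of 0.12 (exact p = 0.333). At 60 min in study 1 it was 9.34, 6.98 and 8.58 with 1.5 µM, 14.8, 14.3 and 12.4 with 0.3 µM, and 19.3, 15.3 and 16.2 with vehicle.

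**Figure D4:**
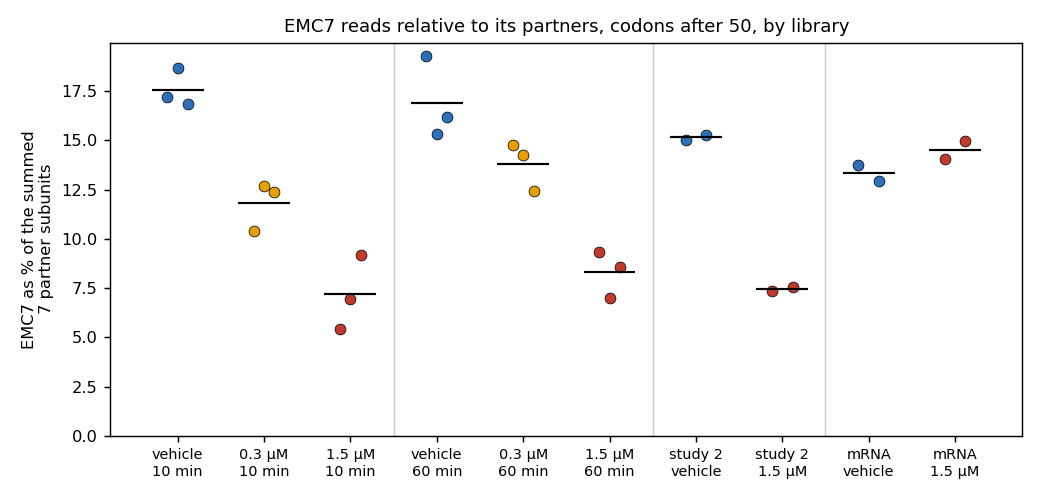
Reads of EMC7 after codon 50 as a percentage of the summed reads of the 7 partners after codon 50 (vertical axis) in each library (points), by group; black bars are group means. The libraries given 1.5 µM lie between 5.40 and 9.34% and the ribo-seq vehicle libraries between 15 and 19.3%, while the 4 mRNA-seq libraries lie between 12.9 and 15%.

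The windows of the partners were tested in the same way as that of EMC7. At 10 min with 1.5 µM, 6 partners had enough reads and 2 were called higher, EMC3 and EMC6, beside the 22% of all windows. With the single codon in place of the window 0 partners were called, and with DESeq2 1 was. The window of EMC3, around codon 35, held 8.59, 5.74 and 10.2 RPM with compound and 3.31, 1.84 and 4.12 RPM with vehicle. All treated libraries were above all vehicle libraries, with a log2 rise of 1.46 (SE 0.37, adjusted p = 0.00544, edgeR). That of EMC6, around codon 59, held 3.20, 4.10 and 4.00 RPM against 2.26, 1.52 and 2.24 RPM (log2 rise 0.97, SE 0.39, adjusted p = 0.0810), and this call was lost without any 1 of the libraries but vehicle replicate 3 (adjusted p = 0.107 to 0.242, edgeR). In study 2, 0 of 5 partner windows were called (1 at an unadjusted p under 0.05, and 0 by DESeq2), beside 1.81% of all windows (1.74% higher, 0.0715% lower). There EMC3 held 2.46 and 2.51 RPM against 2.91 and 3.26 RPM with vehicle (-0.31, adjusted p = 0.955), and EMC6 held 0.738 and 0.739 RPM against 1.89 and 1.24 RPM (-1.11, unadjusted p = 0.0463, adjusted p = 0.594, edgeR). With 0.3 µM 0 of 6 were called by edgeR, 0 at an unadjusted p under 0.05 and 0 by DESeq2. EMC10 had too few reads in its window to be tested in any comparison, and EMC1 too few in study 2.

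Dmax, the study's measure of a shift of reads towards the start, is the largest difference between the treated and the vehicle cumulative share of reads along a coding sequence. It was computed on pooled replicates. The Z-score given here is Dmax over its root mean square among transcripts of like read number, as in the authors' scripts, whereas the study's methods describe the distance from the mean of such transcripts in SD. By the latter the Z-scores of EMC7 with 1.5 µM were 5.55 at 10 min and 12.98 in study 2, that with 0.3 µM at 10 min was 3.19, and that in mRNA-seq was -0.16. For EMC7 it was 0.298 at codon 33 at 10 min with 1.5 µM (Z-score 3.85) and 0.351 at codon 32 in study 2 (Z-score 8.62). It was 0.126 at codon 92 with 0.3 µM at 10 min (Z-score 2.70) and 0.0316 in mRNA-seq (Z-score 0.79). With 1 library left out the Z-score at 0.3 µM ran from 1.87 (without 0.3 µM replicate 1) to 4.24 (without 0.3 µM replicate 2), and that in mRNA-seq from 0.34 (without vehicle replicate 4) to 1.65 (without vehicle replicate 5). A Z-score of at least 2 was reached by 3.48% of transcripts at 10 min, 2.38% in study 2, 3.56% with 0.3 µM and 2.37% in mRNA-seq. Between single libraries, EMC7 gave 0.262 to 0.377 over the 9 pairs of 1.5 µM and vehicle libraries at 10 min and 0.320 to 0.385 over the 4 pairs of study 2. Between the pooled vehicle groups of 10 and 60 min it was 0.0368 (Z-score 0.73), where 3.78% of transcripts reached 2. The 14 ordered pairs of ribo-seq vehicle libraries within a group gave 0.0192 to 0.111, so the pairs with 1.5 µM at 10 min and in study 2 lay above all of them. At 60 min in study 1, by which EMC7 had been picked, Dmax was 0.215 at codon 31 with 1.5 µM (Z-score 3.95) and 0.0692 at codon 31 with 0.3 µM (Z-score 2.08). By the distance from the mean in SD these Z-scores were 4.91 and 2.36. The study lists codon 31 for EMC7 as well, with a Z-score between 3.95 and 4.91. The single-library pairs of EMC7 there ran from 0.168 to 0.280 with 1.5 µM and from 0.0514 to 0.127 with 0.3 µM, and the latter overlapped the vehicle pairs.

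Among the partners, 0 of 7 had a Z-score of at least 2 at 10 min with 1.5 µM, where EMC4 was highest (1.49), and 0 of 7 in study 2, where EMC10 was highest (1.19). With 0.3 µM 0 of 7 did at 10 min, where 3.56% of transcripts did, and 0 of 7 at 60 min (2.37%). EMC9, outside the chosen members, reached 2.28 with 0.3 µM at 10 min. Its Dmax of 0.183 at codon 88 was larger than the 0.126 of EMC7 there, on 302 reads in the group with fewer. Without 0.3 µM replicate 2 its Z-score was 1.75. At 60 min in study 1, where 2.67% of transcripts reached 2, EMC6 (2.21, at codon 102) and EMC10 (2.28, at codon 149) did. Neither place was near the start, and the number of partners at 2 or more ran from 0 to 2 when 1 library was left out.

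The subunits were made at different levels. Per length and depth, ribosome density after codon 50 over the 8 vehicle ribo-seq libraries of both studies was highest for EMC3, at 190 ± 21 (mean ± SD, RPKM, that is RPM per kilobase counted), and then EMC4 at 154 ± 16. EMC7 followed at 129 ± 13, with EMC8 at 107 ± 17 and EMC6 at 93.2 ± 17.3. EMC1, the largest subunit at 972 codons, stood at 56.6 ± 4.0, EMC2 at 39.1 ± 4.4 and EMC10 at 17.3 ± 2.4, beside MMGT1 at 40.5 ± 5.8 and EMC9 at 14.7 ± 2.3. EMC7 was below EMC4 in 8 of 8 libraries and above EMC8 in 7 of 8, although the ranges of these neighbours overlapped. EMC6 and EMC1 had ranges apart, as had EMC1 and MMGT1 and also EMC2 and EMC10. MMGT1 was above EMC2 in 3 of 8 libraries, so that order was within the spread.

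With 1.5 µM compound, EMC7 stood lower in this order. It had rank 3 or 4 of the 10 subunits in each vehicle ribo-seq library, and rank 5 or 6 in each library given 1.5 µM. Of these, the 60-min libraries of study 1, by which EMC7 had been picked, are a description. With 0.3 µM EMC7 had rank 5 in each library at 10 min and ranks 3, 5 and 5 at 60 min. In mRNA-seq it had rank 5 in all 4 libraries, at 88.7 ± 7.6 RPKM in vehicle cells. There EMC6 was highest at 163 ± 1.3, whereas EMC2 was at 10.0 ± 2.4 and MMGT1 at 7.76 ± 1.85. The log2 ratio of ribosome density to mRNA level in vehicle cells, taken after codon 50, was 1.93 and 2.41 for MMGT1 and 1.76 and 2.30 for EMC2, and over the whole coding sequence it was 1.66 and 1.60 for MMGT1 and 1.67 and 2.31 for EMC2. After codon 50 that of MMGT1 was 1.4 and 0.94 with compound. For EMC7 it was 0.23 and 0.46 with vehicle and -0.70 and -0.78 with compound, while that of EMC3 was 0.30 and 0.35 with vehicle and 0.58 and 0.55 with compound. EMC2 and MMGT1 rest on few mRNA reads, and the 2 assays can cover a transcript differently.

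**Figure D5:**
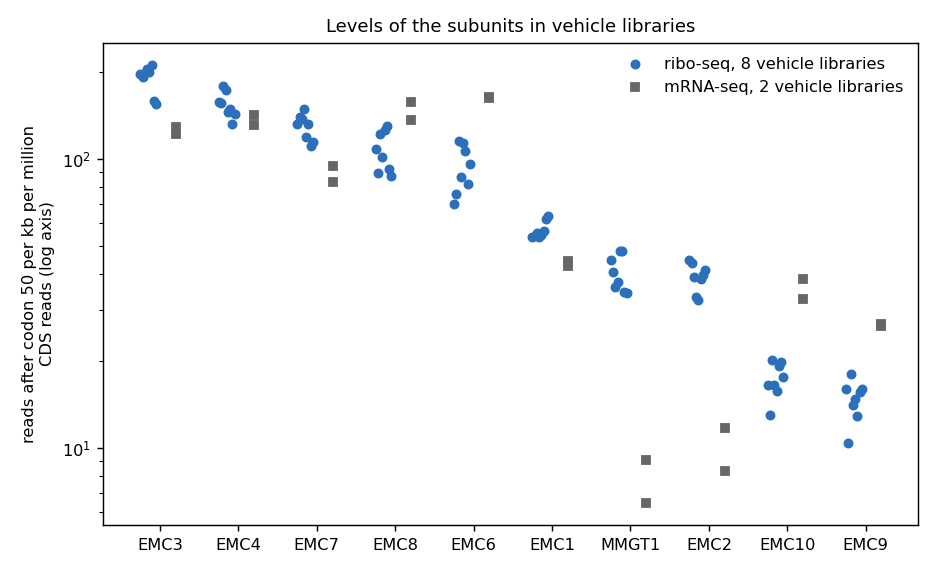
Reads after codon 50 in RPKM (vertical log axis) of the 10 subunits in the 8 vehicle ribo-seq libraries (blue) and the 2 vehicle mRNA-seq libraries (grey squares). Subunits are ordered by their mean in ribo-seq, from EMC3 to EMC9 with EMC7 at rank 3, and the grey squares do not keep that order.

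Beyond the complex, 20 further factors of protein insertion and targeting at the ER were found, among them the Sec61 translocon, the signal recognition particle with its receptor, the GET pathway for tail-anchored proteins and the multipass translocon. Of the 18 or 19 that could be tested after codon 50, 0 were called with edgeR in each of the 8 comparisons, in which 0.0% to 1.81% of all transcripts were, with 0 to 2 at an unadjusted p under 0.05 and medians from -0.07 to 0.08. DESeq2 called 1, RAB5IF at 10 min with 1.5 µM (0.64 by edgeR, adjusted p = 0.115). In the windows, 3 of 18 were called higher at 10 min with 1.5 µM beside the 22% of all windows: NCLN (2.07, adjusted p = 0.000292) and RAB5IF (1.89, adjusted p = 0.000187), both of the multipass translocon, and SEC61G (0.72, adjusted p = 0.0933), a subunit of the Sec61 channel. In study 2, where 1.74% of all windows were called higher, 1 of 19 was, RAB5IF (1.09, adjusted p = 0.00163, edgeR), while NCLN was at 0.17 (adjusted p = 0.979).

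The 5 transcripts whose level after codon 50 moved most like that of EMC7 over the 22 ribo-seq libraries were RPL27, a ribosomal protein gene (Pearson r 0.948), PCBP2 (0.945), GINS1 (0.937), CD99 (0.931) and BCAP31 (0.929), among 9420 transcripts. Values were log2 levels centred on the vehicle libraries of each study and time, so these libraries share their treatment groups and centring, and no test was made. PCBP2 and PCBP1, which had rank 6, are paralogs of similar sequence to which 1 read can map equally well, so their values are uncertain. The study lists RPL27, PCBP2, PCBP1, CD99 and BCAP31, like EMC7, among the genes sensitive to the compound after the longer treatment. GINS1 is not in that list. The listed genes were found in libraries that also enter this correlation, so their likeness to EMC7 is not independent of that selection. The partners had r from -0.48 (EMC6) to 0.18 (EMC2).

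Ribo-seq libraries held 6414227 to 22224137 reads on codons (median 11719666.5) and mRNA-seq libraries 15227654 to 22036358. Of 8 hepatic markers 7 were read, from AFP with a median of 10109 RPM to TTR with 207 RPM, and ALB was not found by symbol among the transcripts of the codon maps. Of the markers of other cell types, GFAP was at 0 in every ribo-seq library, PECAM1 was at 11.5 to 26.7 RPM, and PTPRC, COL1A1 and CD3E were not found by symbol either.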

How the data were processed

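The deposited codon maps list, for 22 ribo-seq and 4 mRNA-seq libraries of Huh7 cells, a transcript, a codon and a raw read count. The authors had trimmed adapters, removed rRNA reads, aligned with Bowtie (version 1.1.2 in the submitters' processing notes) to the most abundant isoform by kallisto (0.42.5), on GRCh38, kept reads with at most 5 best sites, and placed the P-site 14 bases from the 5′ end. A read with several sites can count more than once.

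Counts were summed over the codons after 50, the whole coding sequence and a 5-codon window. Groups were compared with edgeR 4.0.16 (filterByExpr, TMM, quasi-likelihood test, Benjamini-Hochberg over all transcripts, adjusted p under 0.1) and, as an alternative, DESeq2 1.42.0. Single values used exact permutation tests (scipy 1.17.1). The code was tested on simulated data. Dmax needed 10 reads in each group and used bins of 300 transcripts.

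Members and gene lists were chosen with earlier results of these data known. Named were all members, MMGT1 and EMC9, insertion factors that passed a test, and the 5 transcripts most like EMC7. Of 12325 transcripts 11270 had a GENCODE symbol. No 2 libraries of 1 group agreed within sampling noise. Same-numbered libraries deviated together (all correlations over 0.1) at 60 min in study 1, for 0.3 µM and vehicle at 10 min, and for the 2 doses at 10 min (0.198 to 0.335). By this cut they did not for 1.5 µM and vehicle at 10 min, although the correlations there were all positive (0.0736 to 0.206). Study 2 has 2 pairs only, which give the same value. It was 0.223 for ribo-seq, over the cut, and 0.0803 for mRNA-seq, under it. The main fits of study 2 had no replicate block. For 0.3 µM and vehicle at 10 min the correlations were 0.135 to 0.499. A file of the authors' scripts gave the form of the Z-score and no values.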

Additional observations from a re-analysis of the deposited data

Results flagged for a closer look

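The windows of 2 partners had estimates of opposite sign in 2 experiments with different treatment times. Neither window passed in study 2, and the 10-min call of EMC6 was lost in most fits with a library left out. The log2 fold change of the EMC3 window at 10 min in study 1 minus that in study 2 was 1.77, with 1.46 in the first and -0.31 in the second. For the EMC6 window it was 2.07, with 0.97 and -1.11. In each case all treated libraries lay above all vehicle libraries at 10 min and below them in study 2. The share of all windows that separated in this way was not counted. At 10 min 22% of all windows were called higher. As given above for the downstream reads, such separation was common in study 2 with 2 libraries against 2. Both windows were set in libraries of study 1, so the 2 experiments are not on an equal footing. With 60 min in study 1, the treatment time of study 2, the EMC6 window held 3.51, 3.00 and 4.09 RPM with 1.5 µM and 1.71, 2.25 and 2.08 RPM with vehicle, and the EMC3 window 6.21, 10.6 and 12.8 RPM against 2.49, 7.15 and 5.75 RPM. Those libraries set the windows, so these values are a description. The difference between the experiments was not tested. Groups of 2 or 3 libraries are too small for a search for single libraries far from the rest.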

How the results depend on the processing

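EMC7 after codon 50 kept its direction under every alternative in the ribo-seq comparisons. Its value was -0.62 over the whole coding sequence at 60 min in study 1, and -0.27 in study 2 and -0.37 for translational efficiency over the whole coding sequence, both without the call. Counting the peak, which rose, with the rest is what this setting does. Its difference between the doses at 10 min passed with DESeq2 (-0.65) and the replicate block (-0.68), and its window at 0.3 µM passed with DESeq2 (1.62). With a library left out, its translational efficiency ran from -1.15 to -0.98 and its mRNA-seq change from -0.019 to 0.16, negative only without mRNA-seq vehicle replicate 5.

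Counts over all transcripts moved more; the cause was not tested. At 10 min, 195 calls became 608 with DESeq2, 298 without the filter, 94 over the whole coding sequence, 1171 with the replicate block, and 25 to 1674 with a library left out (highest without vehicle replicate 3). At 60 min, 19 became 8 over the whole coding sequence and 63 with the block. At 0.3 µM, 0 became 4 with DESeq2 at 10 min and 5 with the block at 60 min. Between doses, 5 became 97 with DESeq2, 19 without the filter, 0 over the whole coding sequence, 226 with the block, and 3 to 10 with a library left out. In study 2, 29 became 13 over the whole coding sequence, 108 with the block, and 26 to 135 with a library left out (highest without 1.5 µM replicate 5). In mRNA-seq, 0 became 1 with DESeq2 or the block, and 0 to 570 with a library left out (highest without vehicle replicate 4). For translational efficiency, 15 became 4 over the whole coding sequence and 6 to 210 with a library left out (highest without mRNA-seq vehicle replicate 4). Windows called at 10 min, 1009, became 652 for the single codon and 530 to 1308 with a library left out. At 0.3 µM, 0 became 5 for the single codon and 5 with DESeq2, and 0 to 6 with a library left out. In study 2, 76 became 49 with 5 codons on each side and 44 with DESeq2.

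Of the partners after codon 50 at 10 min, 1 was called with DESeq2, 1 without the filter, 2 with the block and 0 to 2 with a library left out (EMC6 and EMC8). Of their windows, 0 were called for the single codon, 1 with DESeq2, 1 without the filter and 1 to 2 with a library left out. Partner estimates that changed sign were ones that had not passed the test. With a library left out, EMC6 at 60 min ran from -0.039 (without 1.5 µM replicate 3) to 0.43, and EMC4 at 0.3 µM and 10 min from -0.15 to 0.0015 (without vehicle replicate 3). EMC8 at 0.3 µM and 60 min ran from -0.072 (without 0.3 µM replicate 3) to 0.22, and was -0.0051 without vehicle replicate 1. The EMC8 window in study 2 ran from -0.086 (without vehicle replicate 5) to 1.92 and was -0.22 with 5 codons on each side, a setting in which the EMC2 window at 10 min was -0.071.

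The ratio of EMC7 to its partners was -1.18 with the replicate block too, where the smallest exact p of 32 sign arrangements is 0.0625. The number of partners with a Z-score of Dmax of at least 2 at 0.3 µM and 60 min was 1 when taken from the bin mean and SD. With a library left out, Dmax of EMC7 ran from 0.200 to 0.256 at 60 min with 1.5 µM (highest without 1.5 µM replicate 1), from 0.120 to 0.162 at 10 min with 0.3 µM, and from 0.0211 to 0.0666 in mRNA-seq. Its Z-score ran from 1.87 (without 0.3 µM replicate 1) to 4.24 at 10 min and from 1.45 (without 0.3 µM replicate 3) to 2.25 at 60 min with 0.3 µM.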
